A study of Mus musculus with 9 samples.

Results

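The TAM receptors and the genes that bridge or engulf apoptotic cells were followed as 10 genes chosen by name: the receptors Axl, Mertk, and Tyro3, the bridging proteins Gas6, Pros1, and Mfge8, the uptake receptors Itgav and Stab1, and the signaling adaptors Elmo1 and Dock2. The counts of all Ensembl transcripts of each gene were summed in every library. All 10 were present among the 54119 genes so obtained, and all 10 were among the 16273 genes that passed a filter on low counts. Tyro3 was the member nearest to that filter, with between 2 and 47 estimated counts per library.

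TAM receptors are receptor tyrosine kinases that do not touch a dying cell themselves. A dying cell exposes phosphatidylserine on its surface, Gas6 and protein S (the product of Pros1) bind this lipid through a vitamin K-dependent domain, and their other end activates the receptor on the phagocyte. Mfge8 bridges phosphatidylserine to alpha v integrins in a parallel route, and complexes of ELMO and DOCK proteins activate Rac, which reshapes actin so that the corpse can be taken up. In the brain, Axl and Mertk are known as the TAM receptors of microglia, and Axl is known to increase in activated cells.

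The 9 libraries came from primary microglia of C57BL/6J mice that received control siRNA, Chd8 siRNA, or Tsc2 siRNA, 3 libraries each with the replicate numbers 1, 2, and 3. Chd8 encodes a chromatin remodeler and Tsc2 an inhibitor of mTOR signaling; a small interfering RNA (siRNA) lowers the mRNA that it matches and does not remove the gene. The cells were shaken off mixed glial cultures of whole embryonic brains, and according to the methods each biological replicate was a culture from a distinct brain and RNA was taken 3 days after siRNA. The results section of the study places the RNA-seq after stimulation with lipopolysaccharide, a bacterial cell wall component, whereas the sample descriptions name no stimulus. In such cells the study measured uptake of latex beads coated with rabbit IgG, which fell with Tsc2 siRNA and not with Chd8 siRNA. Uptake of apoptotic cells was not measured, and the comparisons here address only whether its genes differed in the RNA-seq libraries. For Mfge8 the study reported no significant difference under Tsc2 siRNA.

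Library totals were 16913448 to 33213801 estimated counts, so that a floor of 3 counts was between 0.0903 and 0.177 CPM (the count scaled to the total of the library); this floor covers counting error only. The level of Chd8 was 93.6 to 118 normalized CPM (CPM with TMM scaling) with control siRNA against 38.3 to 86.8 with its own siRNA, and that of Tsc2 was 38.9 to 40.8 against 24.6 to 36.5, so that neither pair of groups overlapped. Neither was called in the edgeR test without the replicate number (adjusted p = 1.00 for both); with the number in the model Chd8 was called (log2 fold change −0.93, edgeR adjusted p = 0.00777, and up to 0.0821 with one library left out) and Tsc2 was not (−0.39, edgeR adjusted p = 0.219).

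Of 10 microglial markers, 9 passed the filter, with a summed level between 1484 and 2031 normalized CPM. Csf1r lay between 60.5 and 90.3 on the TPM scale, which also divides by transcript length, whereas 3 defining markers of microglia in the intact brain were low, namely Cx3cr1 (0.99 to 1.70 TPM), P2ry12 (0.17 to 0.68 TPM), and Tmem119 (at most 0.27 TPM). Astrocyte markers (9 of 10 passed) summed to 17.5 to 119 normalized CPM in control siRNA, 14.8 to 64.6 in Chd8 siRNA, and 14.2 to 63.3 in Tsc2 siRNA. Their median log2 fold change was −0.19 with Chd8 siRNA (3 of 9 higher) and −0.50 with Tsc2 siRNA (2 of 9 higher). Fibroblast and mural markers (6 of 8 passed, Dcn and Lum did not) summed to 13.5 to 141, 12.9 to 113, and 11.2 to 96.1. Their medians were −0.89 and −0.60, each with 1 of 6 higher. With the replicate number in the model, 1 of these 6 was called lower with Chd8 siRNA, beside 0.535% of all genes called. Border macrophage and monocyte markers (4 of 7 passed, Lyve1 was at 0 in every library) summed to 399 to 407 in control siRNA, below the 430 to 494 in Chd8 siRNA and the 492 to 541 in Tsc2 siRNA without overlap. Of the 4, Ms4a7 had a mean of 171 TPM and the next, Mrc1, 7.04 TPM, and 3 of 4 were higher with Chd8 siRNA (median log2 fold change 0.19) and 2 of 4 with Tsc2 siRNA (median 0.0061). Endothelial markers (4 of 6 passed, Tek was at 0 throughout) summed to 184 to 235, 158 to 173, and 168 to 214, so that Chd8 siRNA lay below control without overlap. Here Flt1 had a mean of 15.8 TPM and the next, Kdr, 3.74 TPM, and 2 of 4 were higher with Chd8 siRNA (median log2 fold change −0.02). The part of any of these cell types in the siRNA differences of the members was not tested. Fewer cells of a type and less RNA per cell cannot be told apart in such bulk libraries.

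Axl had the highest level of the 10 genes. Per transcript length it reached 117 ± 20.6 TPM (SD over 9 libraries), at the 98.2 percentile of the genes tested, and lay above Itgav (57.1 ± 19.9 TPM) in 9 of 9 libraries. Stab1 (40.1 ± 10.3 TPM) and Gas6 (24.9 ± 5.26 TPM) followed, each above the next gene in 9 of 9 libraries. Elmo1 (18.3 ± 7.02 TPM), Mertk (15.7 ± 3.10 TPM), and Dock2 (15.2 ± 4.19 TPM) had no fixed order among themselves, as Elmo1 exceeded Mertk in 4 of 9 libraries and Mertk exceeded Dock2 in 6 of 9. Mfge8 (7.99 ± 3.22 TPM) exceeded Pros1 (4.69 ± 1.11 TPM) in 6 of 9 libraries. Tyro3, which in the brain is mainly a receptor of neurons, was last at 0.28 ± 0.25 TPM and never overlapped Pros1.

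The 3 libraries in which Itgav lay below Stab1, Mertk below Dock2, and Mfge8 below Pros1 were in each case the 3 libraries with replicate number 1, 1 from each siRNA. Part of the order depended on which transcripts were summed. Transcripts annotated as protein coding carried 67.3% of the TPM of Axl and 41.0% of that of Stab1, and with these alone Axl stood at 78.4 TPM and Stab1 at 16.4 TPM, below Gas6. Axl then lay above Itgav in 7 of 9 libraries, and Itgav above Stab1 in 9 of 9.

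**Figure D1:**
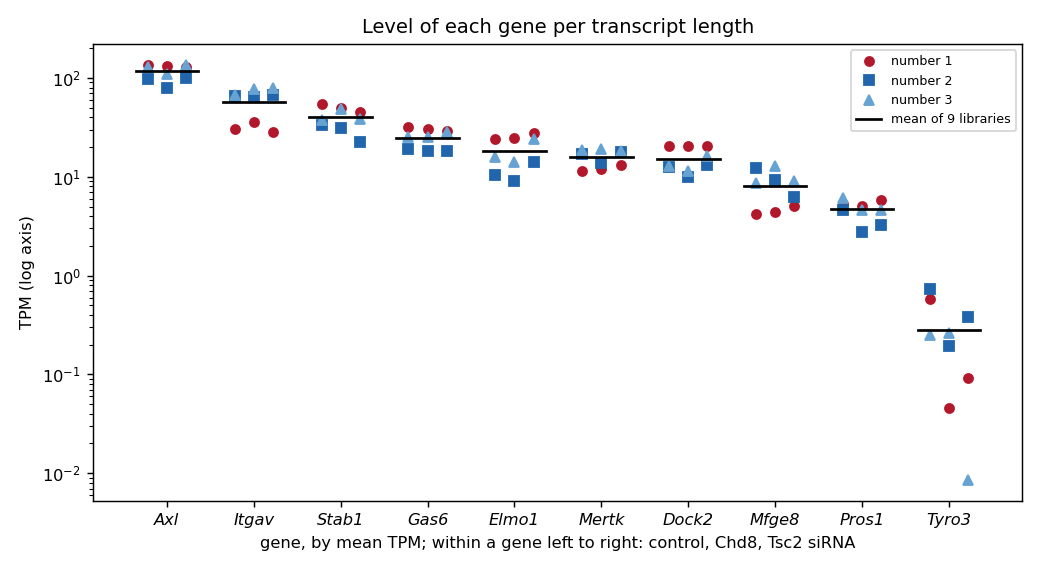
Level of the 10 genes in TPM on a log axis, ordered by the mean of 9 libraries (black bar); each point is a library, its shape and color give the replicate number, and control, Chd8, and Tsc2 siRNA run from left to right within a gene. Axl stands highest at a mean of 117 TPM and Tyro3 lowest at 0.28 TPM.

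Among the receptors, Axl (ENSMUSG00000002602, chromosome 7 of GRCm38, 25757273 to 25788705, minus strand) had 705, 566, and 627 normalized CPM in control libraries 1, 2, and 3, against 641, 508, and 541 with Chd8 siRNA and 641, 620, and 623 with Tsc2 siRNA. Chd8 siRNA lay below control at each of the 3 numbers, but the groups overlapped, and Tsc2 siRNA lay within the control range. Against control, Axl had a log2 fold change of −0.17 (standard error 0.13, 95% interval −0.45 to 0.12) with Chd8 siRNA and −0.01 (standard error 0.13, 95% interval −0.30 to 0.27) with Tsc2 siRNA. Both intervals lay inside a 1.5-fold change, which is 0.58 on the log2 scale.

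Mertk (ENSMUSG00000014361, chromosome 2, 128698956 to 128802894, plus strand), the receptor for both Gas6 and protein S on phagocytes, had 96.2, 163, and 145 normalized CPM with control siRNA, against 94.2, 146, and 149 with Chd8 siRNA and 108, 162, and 134 with Tsc2 siRNA. The 3 groups overlapped. Its log2 fold change was −0.05 (standard error 0.24) with Chd8 siRNA and 0.00 (standard error 0.24) with Tsc2 siRNA. The gene shares its region with the antisense gene Gm14011.

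Tyro3 (ENSMUSG00000027298, chromosome 2, 119797733 to 119818104, plus strand) had 41, 47, and 43 estimated counts with control siRNA, against 10, 30, and 47 with Chd8 siRNA and 7, 34, and 2 with Tsc2 siRNA, the last below the floor of 3 counts. As counts, which are not scaled for depth, every Tsc2 siRNA library was below every control library. On the scale of normalized CPM the level was 2.09 ± 0.71 (SD, n = 3) in control, 1.39 ± 0.92 in Chd8 siRNA, and 0.69 ± 0.89 in Tsc2 siRNA; here Tsc2 siRNA was below control at each of the 3 numbers but the groups overlapped, as control 1 (1.55) lay below Tsc2 2 (1.70). Tyro3 had a log2 fold change of −0.59 (standard error 0.96) with Chd8 siRNA and of −1.64 (standard error 0.99, 95% interval −3.86 to 0.58) with Tsc2 siRNA, the widest interval of the 10 genes. With one library left out it ran from −0.92 (without Chd8 siRNA library 3) to −0.12 (without Chd8 siRNA library 1) and from −3.57 (without Tsc2 siRNA library 2) to −1.06 (without Tsc2 siRNA library 3).

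**Figure D2:**
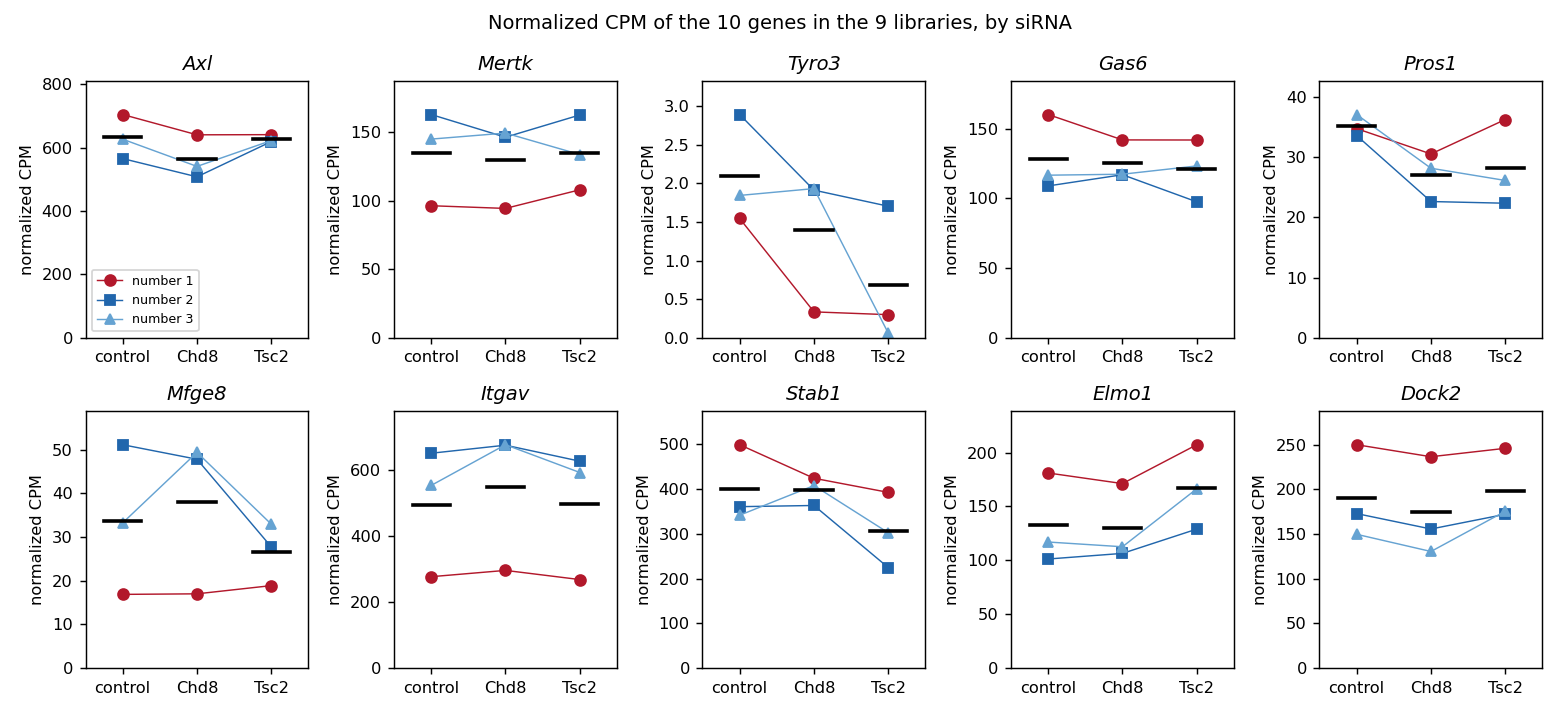
Normalized CPM of each gene in the 9 libraries, with the siRNA on the x axis; lines join libraries with the same replicate number and black bars are the means of 3 libraries. For Itgav, Mertk, and Mfge8 the line of number 1 lies below the other 2 lines throughout (267 to 295 against 552 to 676 CPM for Itgav), and for Dock2 it lies above them (237 to 250 against 130 to 176 CPM).

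Of the bridging genes, Gas6 (ENSMUSG00000031451, chromosome 8, 13465374 to 13494490, minus strand), the ligand shared by the TAM receptors, had 160, 109, and 117 normalized CPM with control siRNA, against 142, 117, and 117 with Chd8 siRNA and 142, 97.6, and 123 with Tsc2 siRNA. Its log2 fold changes were −0.04 and −0.09 (standard error 0.19 for both), and the groups overlapped. Gas6 overlaps Tmem255b on the opposite strand, and whether the quantification used strand is not given in the sources used here.

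Pros1 (ENSMUSG00000022912, chromosome 16, 62854307 to 62929346, plus strand), which encodes the anticoagulant protein S, had 34.8, 33.6, and 37.1 normalized CPM in control siRNA. With Chd8 siRNA it had 30.5, 22.6, and 28.2, and with Tsc2 siRNA 36.3, 22.4, and 26.1. All 3 Chd8 siRNA libraries lay below all 3 control libraries, whereas Tsc2 siRNA 1 lay within the control range. Pros1 had a log2 fold change of −0.37 (standard error 0.19, 95% interval −0.80 to 0.06) with Chd8 siRNA and −0.32 (standard error 0.19, 95% interval −0.75 to 0.12) with Tsc2 siRNA. Pros1 was the only member of 10 whose Chd8 siRNA and control libraries did not overlap, beside 4.92% of all genes tested that were lower without overlap and 4.17% that were higher. With Tsc2 siRNA 0 of 10 members were free of overlap with control, beside 4.23% of all genes lower and 3.87% higher.

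Mfge8 (ENSMUSG00000030605, chromosome 7, 79133768 to 79149060, minus strand), which joins phosphatidylserine to alpha v integrins, had 16.9, 51.2, and 33.2 normalized CPM with control siRNA, against 17.0, 47.8, and 49.4 with Chd8 siRNA and 18.9, 27.7, and 32.9 with Tsc2 siRNA. The 3 groups overlapped, and number 1 was lowest with each siRNA. For Mfge8 the log2 fold change was 0.17 (standard error 0.45) with Chd8 siRNA and −0.34 (standard error 0.45) with Tsc2 siRNA.

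Of the uptake receptors, Itgav (ENSMUSG00000027087, chromosome 2, 83724397 to 83806916, plus strand), the alpha v integrin chain, had 276, 650, and 552 normalized CPM with control siRNA, against 295, 674, and 676 with Chd8 siRNA and 267, 626, and 591 with Tsc2 siRNA. Chd8 siRNA was above control at each of the 3 numbers, by less than the spread between numbers (log2 fold change 0.15, standard error 0.42). With Tsc2 siRNA it was 0.01 (standard error 0.42). Itgav overlaps Gm13684 and Dnmt3l-ps1 on the opposite strand.

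Stab1 (ENSMUSG00000042286, chromosome 14, 31139013 to 31168641, minus strand) encodes stabilin-1, a scavenger receptor of macrophages that binds phosphatidylserine. It had 499, 361, and 342 normalized CPM with control siRNA, against 424, 363, and 408 with Chd8 siRNA and 393, 224, and 302 with Tsc2 siRNA. Tsc2 siRNA was below control at each of the 3 numbers, although its library 1 lay inside the control range. For Stab1 the log2 fold change was −0.01 (standard error 0.21) with Chd8 siRNA and −0.39 (standard error 0.21, 95% interval −0.86 to 0.08) with Tsc2 siRNA. Nt5dc2 overlaps Stab1 on the opposite strand.

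The signaling adaptors form the complex that activates Rac. Elmo1 (ENSMUSG00000041112, chromosome 13, 20090596 to 20608353, plus strand) had 181, 101, and 117 normalized CPM with control siRNA, against 171, 106, and 113 with Chd8 siRNA and 207, 129, and 166 with Tsc2 siRNA. It was above control at each of the 3 numbers with Tsc2 siRNA, and the groups overlapped, as control 1 lay above Tsc2 2 and Tsc2 3. Elmo1 had a log2 fold change of −0.03 (standard error 0.27) with Chd8 siRNA and 0.33 (standard error 0.27, 95% interval −0.26 to 0.93) with Tsc2 siRNA. Dock2 (ENSMUSG00000020143, chromosome 11, 34226815 to 34783892, minus strand), the DOCK protein of blood-derived cells, had 250, 173, and 150 normalized CPM with control siRNA, against 237, 156, and 130 with Chd8 siRNA and 246, 172, and 176 with Tsc2 siRNA. Its log2 fold changes were −0.13 and 0.05 (standard error 0.26 for both). On the opposite strand Elmo1 overlaps Gm32036, and Dock2 overlaps the coding gene Fam196b and the antisense gene 4930403D09Rik.

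In all, 0 of the 10 genes were called with Chd8 siRNA and 0 of 10 with Tsc2 siRNA at a Benjamini-Hochberg adjusted p under 0.05 from edgeR's quasi-likelihood model and a 1.5-fold difference, and every adjusted p was 1.00. The test called 0% of the 16273 genes in either comparison, and so did the fit without 1 library at a time. At an unadjusted p under 0.05 it found 0 of 10 members beside 3.82% and 2.61% of all genes, and DESeq2 called 0 of 10 members beside 0.0553% and 0.0369%. The median log2 fold change of the members was −0.04 with Chd8 siRNA and −0.05 with Tsc2 siRNA, and that of all genes tested was −0.02 in both.

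The replicate number, taken into the model as a block, narrowed the standard errors and raised the calls among all genes to 0.535% with Chd8 siRNA and 0.387% with Tsc2 siRNA. Still 0 of 10 members were called in either comparison. An unadjusted p under 0.05 was reached by 3 of 10 members with Chd8 siRNA (Itgav higher, Axl and Pros1 lower), beside 12.8% of all genes, and by 4 of 10 with Tsc2 siRNA (Elmo1 higher, Stab1, Pros1, and Tyro3 lower), beside 10.7%. The lowest adjusted p belonged to Elmo1 with Tsc2 siRNA (log2 fold change 0.35, standard error 0.08, edgeR adjusted p = 0.0827) and Stab1 with Tsc2 siRNA (−0.40, standard error 0.10, edgeR adjusted p = 0.108). For Pros1 with Chd8 siRNA the values were −0.39, 0.13, and an edgeR adjusted p of 0.194.

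These p-values moved with single libraries. With the block, the adjusted p of Elmo1 ran from 0.0340 without Tsc2 siRNA library 1 to 0.495 without control library 3, and that of Stab1 from 0.0425 without Tsc2 siRNA library 1 to 0.513 without Tsc2 siRNA library 2, at fold changes under 1.5 throughout. Direction at every number was counted as well. With Tsc2 siRNA, 1 of 10 members was higher at all 3 numbers (Elmo1) and 2 were lower (Stab1 and Tyro3), beside 15.5% and 16.3% of all genes. With Chd8 siRNA, 1 was higher (Itgav) and 3 were lower (Axl, Pros1, and Dock2), beside 17.7% and 18.3%.

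**Figure D3:**
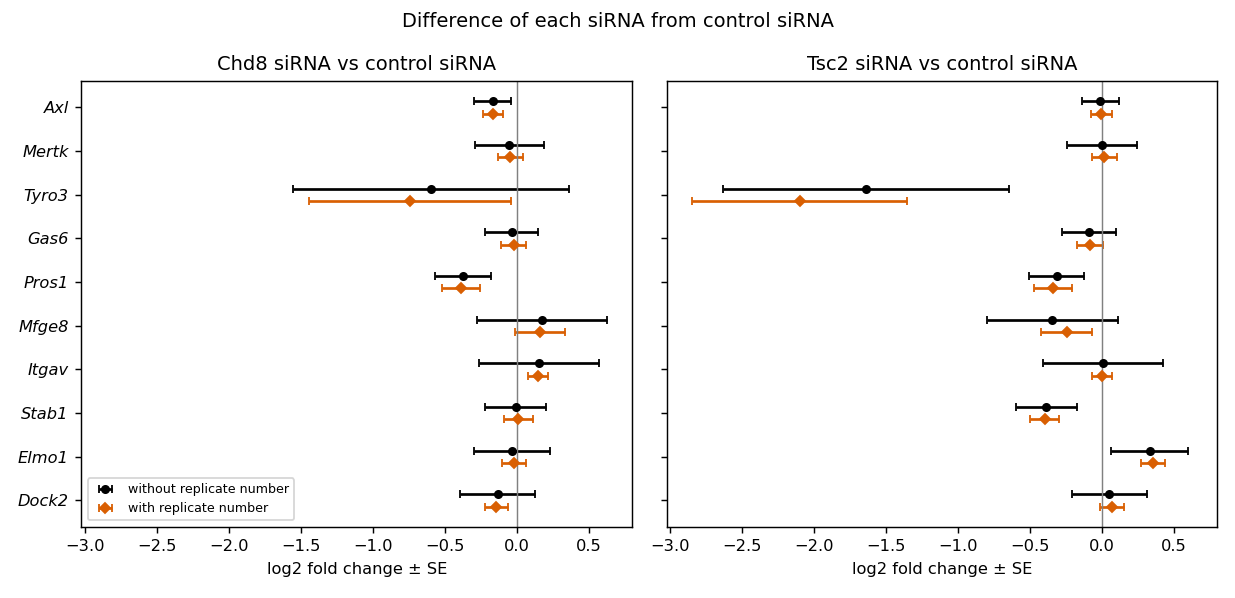
Log2 fold change of each gene against control siRNA with its standard error, for Chd8 siRNA on the left and Tsc2 siRNA on the right, without (black circles) and with (orange diamonds) the replicate number in the model. The bars shorten with the number in the model, and the points farthest from 0 are those of Tyro3, at −1.64 and −2.10 with Tsc2 siRNA.

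Set against each other, Chd8 and Tsc2 siRNA gave 0 of 10 members called without the replicate block (0% of all genes), 0 of 10 with it (0.221%), and 0 of 10 by DESeq2 (0.0307%). An unadjusted p under 0.05 was reached by 0 of 10 without the block (3.1% of all genes) and 6 of 10 with it (10.7%), namely Mfge8, Itgav, and Stab1, higher with Chd8 siRNA, and Axl, Elmo1, and Dock2, lower. With the block 0 of 10 had an adjusted p under 0.05 at any fold (0.375%). In 0 of 10 members were the groups free of overlap, beside 4.02% of all genes higher and 4.42% lower with Chd8 siRNA. At all 3 numbers 3 of 10 were higher (16.2%) and 3 of 10 lower (15.9%). The log2 differences, Chd8 minus Tsc2 siRNA, ranged from −0.37 to 1.05, and the median over the members was 0.00. With the block, Elmo1 differed by −0.37 (standard error 0.08, edgeR adjusted p = 0.0818), and its adjusted p ran from 0.0284 without Tsc2 siRNA library 1 to 0.538 without Chd8 siRNA library 3. Stab1 differed by 0.41 (standard error 0.10, edgeR adjusted p = 0.116), with 0.0316 without Chd8 siRNA library 1, a value under 0.05 also without Tsc2 siRNA library 1, and up to 0.615 without Chd8 siRNA library 3, all by edgeR and at folds under 1.5.

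The members also differed between replicate numbers. In the F test over both number terms, with the siRNA in the model, 7 of 10 members differed between numbers at an edgeR adjusted p under 0.05, beside 25% of all genes. Mertk, Mfge8, and Itgav were higher in numbers 2 and 3 than in number 1, and Gas6, Stab1, Elmo1, and Dock2 were lower. Axl (edgeR adjusted p = 0.0519), Pros1 (0.0951), and Tyro3 (0.137) did not pass.

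Itgav had the lowest p of the 10. It lay between 267 and 295 normalized CPM in the 3 number 1 libraries and between 552 and 676 in the other 6, a log2 difference of 1.22 for number 2 and 1.11 for number 3 (edgeR adjusted p = 1.15e-08). Mfge8, whose protein is a ligand of the integrin, lay between 16.9 and 18.9 in number 1 and between 27.7 and 51.2 in the others, with log2 differences of 1.23 and 1.11 (edgeR adjusted p = 0.000203). Mertk lay between 94.2 and 108 in number 1 and between 134 and 163 in the others, with log2 differences of 0.66 and 0.52 (edgeR adjusted p = 8.9e-05). In these 3 genes every number 1 library lay below all others, which held for 9.21% of all genes.

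The opposite pattern was seen in the adaptors. Dock2 lay between 237 and 250 normalized CPM in number 1 and between 130 and 176 in the others, with log2 differences of −0.55 and −0.69 (edgeR adjusted p = 2.23e-05). Elmo1 lay between 171 and 207 against 101 to 166, with log2 differences of −0.74 and −0.52 (edgeR adjusted p = 2.13e-05). Gas6 and Axl, the ligand and its receptor, were also highest in number 1 without overlap, at 142 to 160 against 97.6 to 123 normalized CPM for Gas6 (edgeR adjusted p = 0.0027) and 641 to 705 against 508 to 627 for Axl. Counting Axl, 4 of 10 members lay wholly above in number 1, beside 9.64% of all genes.

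With the number 1 libraries left out, 0 of 10 members differed between numbers 2 and 3 at an edgeR adjusted p under 0.05, beside 8.32% of all genes, and 1 of 10 had an unadjusted p under 0.05 (Elmo1, log2 difference 0.22, edgeR adjusted p = 0.113). With them left out and the block kept, the log2 fold change of Elmo1 with Tsc2 siRNA was 0.43 (edgeR adjusted p = 0.0464), still under a fold of 1.5. What the numbers stand for in the cultures is not given in the sources used here.

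Markers of other cells moved with the number as well, though not to the same extent in every list. Summed astrocyte markers were 14.2 to 17.5 normalized CPM in number 1, 26.8 to 32.3 in number 2, and 63.3 to 119 in number 3, and 8 of the 9 tested differed between numbers. Summed fibroblast and mural markers were 11.2 to 13.5, 24.3 to 40.1, and 96.1 to 141, and 5 of 6 differed. Microglial markers summed to 1912 to 2031, 1697 to 1828, and 1484 to 1839, and 8 of 9 differed. Oligodendrocyte lineage markers summed to 24.2 to 27.4, 24.4 to 26.7, and 11.8 to 19.9, with 4 of 4 differing, and neuronal markers to 3.25 to 4.6, 4.86 to 8.55, and 6.32 to 19.8, with 2 of 5 differing. Endothelial markers summed to 166 to 184, 158 to 192, and 173 to 235, with 2 of 4 differing. Border macrophage and monocyte markers summed to 407 to 494, 399 to 503, and 407 to 541, with 1 of 4 differing. All these counts stand beside 25% of all genes in the same test. The part of these cells in the members' differences was not tested.

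**Figure D4:**
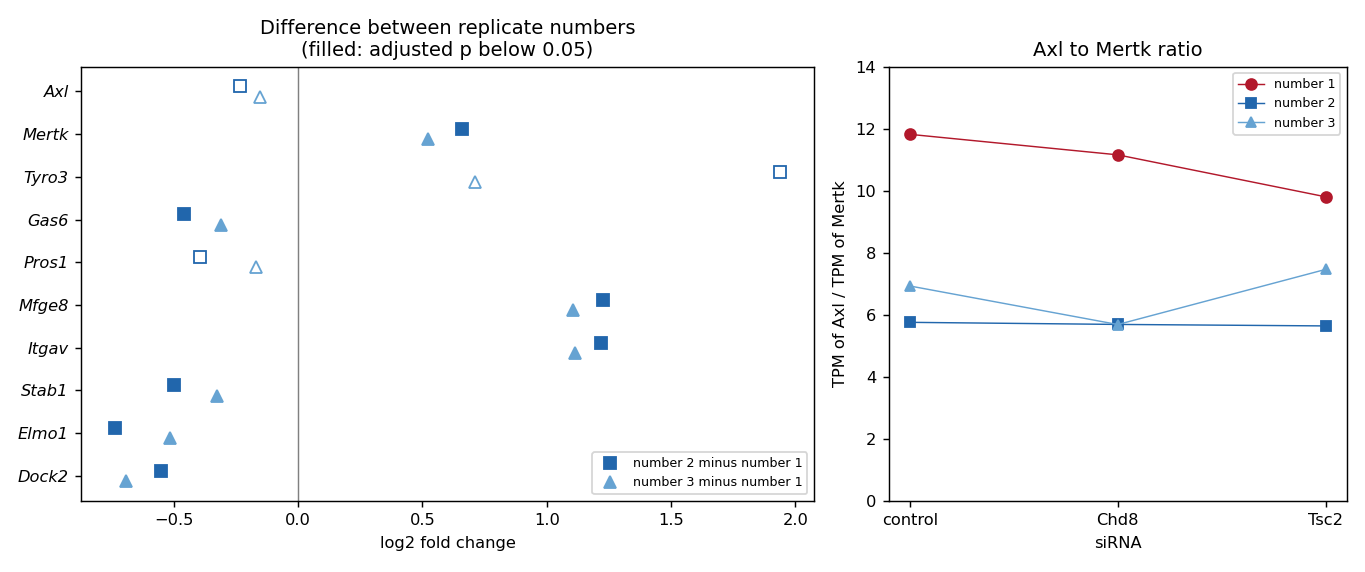
Left, log2 fold change of replicate numbers 2 (squares) and 3 (triangles) against number 1 for each gene, averaged over the siRNAs by the model, with filled symbols for an adjusted p below 0.05; right, the ratio of the TPM of Axl to that of Mertk in each library. Mertk, Mfge8, and Itgav lie to the right of 0 and Gas6, Stab1, Elmo1, and Dock2 to the left, and the ratio is 9.80 to 11.8 in number 1 and 5.64 to 7.46 in the others.

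Axl was highest and Mertk lowest in the number 1 libraries, and their balance within a library was examined. The ratio of Axl to Mertk in TPM was 11.8, 5.75, and 6.93 with control siRNA, against 11.2, 5.69, and 5.68 with Chd8 siRNA and 9.80, 5.64, and 7.46 with Tsc2 siRNA. With all transcripts summed, Axl exceeded Mertk by more than 5 times in every library. With protein-coding transcripts alone (means of 78.4 TPM for Axl and 15.2 TPM for Mertk) that did not hold in every library. With Chd8 siRNA the ratio was below control at 3 of 3 numbers, and with Tsc2 siRNA at 2 of 3. Between siRNAs the mean log2 ratio differed from control by −0.13 for Chd8 (p = 0.5) and −0.06 for Tsc2 (p = 0.9) in two-sided exact permutation tests, in which 3 libraries against 3 cannot go below 0.1. Paired within the replicate numbers, the exact sign permutation test gave p = 0.25 and p = 0.75, and 3 pairs cannot go below 0.25.

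The ligands showed another balance. The ratio of Gas6 to Pros1 was 5.92, 4.18, and 4.08 with control siRNA, against 5.95, 6.70, and 5.40 with Chd8 siRNA and 4.99, 5.58, and 6.06 with Tsc2 siRNA. The means were 4.73 ± 1.04, 6.02 ± 0.65, and 5.54 ± 0.54 (SD, n = 3), and control 1 lay within the range of both other groups. With Chd8 siRNA the ratio was above control at 3 of 3 numbers, and with Tsc2 siRNA at 2 of 3. The mean log2 ratio differed from control by 0.36 for Chd8 (p = 0.2) and by 0.25 for Tsc2 (p = 0.3) in the same exact permutation test, and pairing within the numbers gave p = 0.25 and p = 0.5 by exact sign permutation.

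Promoter sequences are shown for 3 genes that were higher together in numbers 2 and 3 and for Dock2, which was lower there. They are the 250 bases before the RefSeq start site on GRCm38.p6, in the direction of the gene, with capitals for GAGGAAG or its reverse complement, letters of the binding motif of the macrophage factor PU.1: Itgav at chr2:83724147-83724396 (plus strand), Mertk at chr2:128698665-128698914 (plus strand), Mfge8 at chr7:79149061-79149310 (minus strand), and Dock2 at chr11:34783906-34784155 (minus strand).
Itgav: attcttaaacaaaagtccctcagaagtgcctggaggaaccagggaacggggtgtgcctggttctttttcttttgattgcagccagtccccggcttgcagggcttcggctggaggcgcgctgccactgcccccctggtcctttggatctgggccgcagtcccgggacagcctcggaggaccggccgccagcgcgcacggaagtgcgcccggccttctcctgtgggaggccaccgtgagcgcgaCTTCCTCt
Mertk: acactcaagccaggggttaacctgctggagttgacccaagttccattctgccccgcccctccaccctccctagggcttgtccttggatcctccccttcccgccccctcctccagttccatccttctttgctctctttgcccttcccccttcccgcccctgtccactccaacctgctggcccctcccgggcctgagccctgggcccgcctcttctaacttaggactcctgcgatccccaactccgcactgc
Mfge8: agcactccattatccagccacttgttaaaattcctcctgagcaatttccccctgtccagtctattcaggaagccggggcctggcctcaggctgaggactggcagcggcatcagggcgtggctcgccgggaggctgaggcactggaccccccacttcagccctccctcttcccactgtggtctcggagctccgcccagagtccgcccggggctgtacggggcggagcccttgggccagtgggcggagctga
Dock2: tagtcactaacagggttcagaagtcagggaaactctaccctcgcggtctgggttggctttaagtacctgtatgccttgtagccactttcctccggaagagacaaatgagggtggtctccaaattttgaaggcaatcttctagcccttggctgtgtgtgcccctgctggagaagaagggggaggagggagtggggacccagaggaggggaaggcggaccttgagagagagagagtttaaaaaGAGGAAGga

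All 10 members had an entry among 32851 RefSeq promoters, Elmo1 with 2 and the others with 1. The motif was found on either strand in 3 of these 11 sequences, those of Axl, Dock2, and Itgav, and in 10.6% of all promoters. In Itgav it began 8 bases and in Dock2 9 bases before the start site, and Mertk and Mfge8 had no match. The GC box GGGCGG was present in both of these, as in 7 of the 11 member sequences and 32.7% of all promoters, and absent from Itgav and Dock2. Whether a motif bears on the differences between numbers was not tested.

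A further 6 motifs were searched on both strands. The ETS motif CCGGAAG, which shares the letters GGAAG with that of PU.1, was found in Dock2 alone among the members and in 6.91% of all promoters. The other 5 were in none of the 11 member sequences: AP-1 (TGANTCA, in 6.75% of all promoters), the E-box CACGTG (6.02%), the core of the MAF factor site TGCTGAC (3.81%), CRE (TGACGTCA, 1.55%), and C/EBP (TTGCGCAA, 0.164%).

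At the level of transcripts, the table listed 68 for the 10 genes, of which 25 are annotated as protein coding and 30 as retained intron, and 44 passed the filter. One full-length coding transcript carried most of the TPM of Gas6 (Gas6-201, 100%), Pros1 (Pros1-201, 99.0%), Mertk (Mertk-201, 96.9%), and Dock2 (Dock2-201, 94.9%). The others were more divided. The leading transcript held 72.0% in Mfge8 (Mfge8-201), 59.0% in Itgav (Itgav-201), 57.0% in Elmo1 (Elmo1-201), 52.6% in Tyro3 (Tyro3-201), and 39.2% in Axl (Axl-201), while in Stab1 a retained-intron transcript of 2427 bases (Stab1-205, 41.1%) was level with the coding Stab1-201 of 7999 bases (40.7%).

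None of the 44 was called by edgeR in either comparison (0% of 41633 transcripts). An unadjusted p under 0.05 was reached by 3 for Chd8 siRNA (Dock2-205, Dock2-206, and Itgav-202), beside 3.32% of all transcripts. For Tsc2 siRNA it was reached by 2 (Dock2-206 and Stab1-201), beside 2.83%. Itgav-202 was at 0 in every Chd8 siRNA library and also in control library 3. It passed the count filter only through control and Tsc2 siRNA libraries, so its p is a description and supports no difference. DESeq2's Wald test, added after the data were seen, called 2 for Chd8 siRNA and 1 for Tsc2 siRNA, beside 0.452% and 0.413% of all transcripts. Those calls fell on a pair of minor Dock2 transcripts that differ by the presence of one exon of 101 bases and by a few bases at the start of their first exon. Dock2-206 (3819 bases, annotated as retained intron) holds the exon and Dock2-205 (3727 bases, annotated as a target of nonsense-mediated decay) skips it. The exon is at chr11:34688453-34688553 on the minus strand of GRCm38, is exon 21 of 52 in the coding Dock2-201, and is shown in capitals between the 20 bases on each side in the transcripts, to show the only stretch that tells the pair apart beyond their starts.
Dock2-206: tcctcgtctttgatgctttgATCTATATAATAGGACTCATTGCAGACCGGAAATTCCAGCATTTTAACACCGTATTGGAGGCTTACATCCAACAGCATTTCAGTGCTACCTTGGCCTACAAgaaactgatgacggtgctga
Dock2-205: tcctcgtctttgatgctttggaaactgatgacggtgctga

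Dock2-206 had 0, 0, and 0 estimated counts with control siRNA, against 158, 34.2, and 77.1 with Chd8 siRNA and 154, 53.9, and 0 with Tsc2 siRNA. Dock2-205 had 102, 94.0, and 2.84 with control siRNA, against 0, 0, and 0 with Chd8 siRNA and 0, 44.4, and 65.2 with Tsc2 siRNA. The form with the exon was thus estimated in every Chd8 siRNA library and in no control library, and the form without it in no Chd8 siRNA library. Control library 3 was below the floor of 3 counts for both forms, and Tsc2 siRNA library 3 had 0 of the form with the exon.

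The tests disagreed on these differences. The edgeR adjusted p was 1.00 for both transcripts and both comparisons, whereas DESeq2 gave adjusted p-values of 0.00933 (Dock2-206) and 0.0314 (Dock2-205) for Chd8 siRNA and 0.0138 (Dock2-206) for Tsc2 siRNA. The DESeq2 fit did not hold the replicate number, and with it in the model the edgeR adjusted p for Chd8 siRNA was 0.883 (Dock2-206) and 0.913 (Dock2-205). As Dock2-206 was at 0 in control and Dock2-205 at 0 with Chd8 siRNA, each passed the count filter only through the groups where it was present, so these p-values are given as a description and support no difference. Together the pair held 0.0814% to 3.35% of the gene's counts in a library, and Dock2-201, with 2386 to 6859 counts, contains the same exon. Reads in the shared exons belong to several of these transcripts, so the split between them is an estimate of the quantification and not a direct count of reads over the junction.

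**Figure D5:**
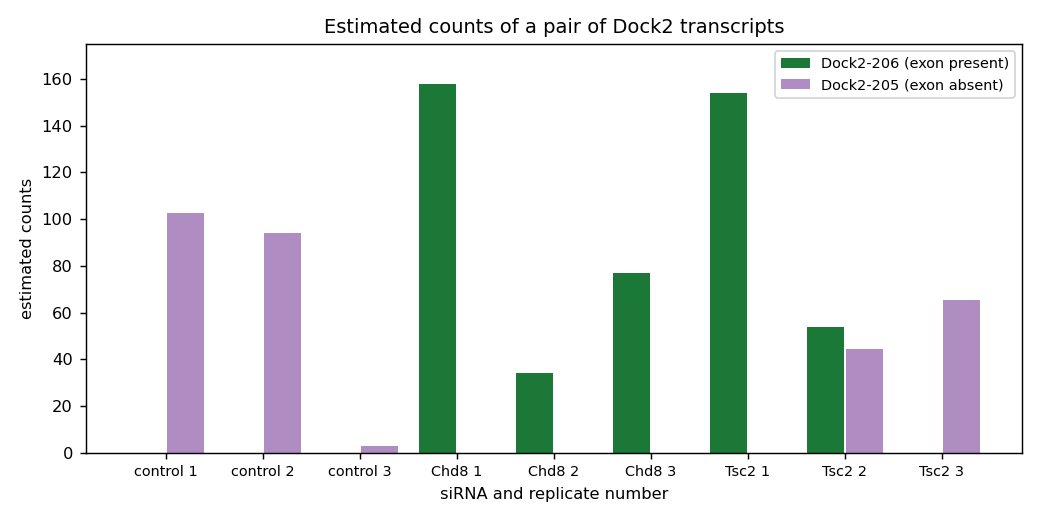
Estimated counts of Dock2-206, which holds the exon of 101 bases, and Dock2-205, which skips it, in each library (bars from 0). Control libraries show Dock2-205 only, Chd8 siRNA libraries Dock2-206 only, and the Tsc2 siRNA libraries differ among themselves.

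Around these genes, 67 others of apoptotic-cell clearance were examined in 6 lists: other phosphatidylserine receptors, other bridging proteins, engulfment and lipid export, receptors for find-me signals, genes downstream of TAM signaling, and genes that supply or shed its parts. Of them 62 passed the filter. None was called by edgeR with either siRNA without the block, with every adjusted p at 1.00. In that fit 0 of 62 had an unadjusted p under 0.05, beside 3.82% of all genes with Chd8 siRNA and 2.61% with Tsc2 siRNA. With the block, 0 of 62 were called beside 0.535% and 0.387% of all genes, and 17 with Chd8 siRNA and 19 with Tsc2 siRNA had an unadjusted p under 0.05 beside 12.8% and 10.7%. With Tsc2 siRNA 0 of 62 and 0 of 10 members had an adjusted p under 0.05 at any fold in that fit, beside 0.639% of all genes. The median log2 fold change was 0.10 with Chd8 siRNA and −0.01 with Tsc2 siRNA.

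Other phosphatidylserine receptors had a median log2 fold change of −0.39 with Tsc2 siRNA, where 2 of 11 were higher, and of −0.02 with Chd8 siRNA, where 4 of 11 were higher. Lrp1, a large endocytic receptor that acts with calreticulin in corpse uptake, had 563, 789, and 666 normalized CPM with control siRNA, against 463, 550, and 523 with Tsc2 siRNA, and the groups did not overlap. Its log2 fold change was −0.39 (standard error 0.19), and with the block −0.38 at an edgeR adjusted p of 0.0563 (0.00836 to 0.352 with one library left out). Find-me receptors had medians of 0.06 and 0.20 over 7 genes with Chd8 and Tsc2 siRNA. Gpr34, a receptor for lysophosphatidylserine, had a log2 fold change of 0.96 (standard error 0.56) with Tsc2 siRNA, and 0.60 to 1.29 with one library left out. Its level was low, with means of 3.18 normalized CPM against 1.64 in control, and the groups overlapped. With the block its edgeR adjusted p was 0.298. Cx3cr1, the fractalkine receptor, had a log2 fold change of −0.42 (standard error 0.29) with Chd8 siRNA, and −0.65 to −0.21 with one library left out.

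Other bridging proteins had medians of 0.21 with Chd8 siRNA (7 of 10 higher) and 0.01 with Tsc2 siRNA (5 of 10 higher). Anxa1, a phosphatidylserine-binding annexin, had 138, 272, and 128 normalized CPM with control siRNA, against 197, 297, and 236 with Chd8 siRNA. It was higher at each of the 3 numbers, and with the block its log2 fold change was 0.50 (edgeR adjusted p = 0.0446), under a fold of 1.5; without control library 2 it was 0.69 and passed both thresholds (edgeR adjusted p = 0.0156), whereas without control library 3 it was 0.35 (edgeR adjusted p = 0.353). C1qb, a chain of complement C1q, had 637, 746, and 612 normalized CPM with control siRNA, against 763, 831, and 756 with Tsc2 siRNA, without overlap (log2 fold change 0.24, standard error 0.14). Edil3, a bridging protein related to Mfge8, lay between 0.12 and 1.91 normalized CPM over all libraries. Its log2 fold change was −1.41 (standard error 0.67) for Tsc2 siRNA, and −2.11 to −0.94 with one library left out.

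Engulfment genes had medians of 0.04 and 0.00 over 16 genes with Chd8 and Tsc2 siRNA. Src, a tyrosine kinase of the cytoplasm, had 158, 259, and 203 normalized CPM with control siRNA, against 199, 338, and 292 with Chd8 siRNA. It was higher at each of the 3 numbers, and with the block it had a log2 difference of 0.41 (standard error 0.07) at an edgeR adjusted p of 0.014 (0.0071 to 0.175 with one library left out), under a fold of 1.5. Src and Anxa1 were the 2 of 62 genes at an adjusted p under 0.05 with Chd8 siRNA regardless of fold, beside 1.04% of all genes, and were named after their values were seen. Rhog, a small GTPase that recruits ELMO, had a log2 fold change of 0.19 (standard error 0.11) with Chd8 siRNA.

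Genes downstream of TAM signaling had medians of 0.15 and 0.03 over 7 genes. Pik3r1, a regulatory subunit of PI3-kinase, had a log2 fold change of −0.19 (standard error 0.19) with Chd8 siRNA, and −0.34 to −0.08 with one library left out. Supply genes had medians of 0.11 and 0.00 over 11 genes, and Nr1h3, a liver X receptor, had 1.16 (standard error 0.53) with Chd8 siRNA at a mean level of 0.63 TPM, and 0.43 without Chd8 siRNA library 2. Like the members, these genes differed between replicate numbers. In that test 40 of the 62 (64.5%) were called beside 25% of all genes, 6 of 11 receptors, 8 of 10 bridging proteins, 10 of 16 engulfment genes, 5 of 7 find-me receptors, 6 of 7 downstream genes, and 5 of 11 supply genes.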

How the data were processed

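RNA-seq of primary mouse microglia was used in 9 libraries, 3 each for control, Chd8, and Tsc2 siRNA, grouped by the titles in the sample descriptions. The authors quantified reads against mm10 with Salmon 0.14.1 and tximport, and deposited the estimated counts of each transcript, neither normalized nor pooled; the annotation release and the strand setting are not given in the sources used here. The labels name a stranded SMARTer kit, whereas the methods of the study name an Illumina total RNA preparation. The same methods use DESeq2 for differential expression.

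Transcripts were assigned to genes with GENCODE mouse release M21 (139852 of 140948; the 1096 others held 0.27% of the counts and were left out of gene tests), summed, and rounded. Genes were kept by filterByExpr (16273) and scaled by TMM, and the siRNAs were tested with edgeR 4.0.16 in R 4.3.3 by its quasi-likelihood test over all 9 libraries, with Benjamini-Hochberg adjustment over all genes tested. A call required an adjusted p under 0.05 and a fold of 1.5. TPM was computed from the deposited counts and the annotated transcript lengths. Ratios of TPM were compared by exact permutation in scipy 1.17.1.

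Libraries of the same replicate number deviated together from their group means (r between 0.24 and 0.52 over 9 pairs, mean 0.37), and those of different numbers did not (r between −0.38 and 0.036 over 18 pairs, mean −0.18). Deviations from a group mean cancel within the group, so the values for different numbers largely follow from the others. They add no separate evidence. The numbers were therefore taken to pair the libraries, which rests on the data and not on a statement in the labels. The replicate number was entered as a block in a second fit, and its biological coefficient of variation was 0.234, against 0.408 without it. If libraries of a group did not come from separate cultures, the p-values measure technical spread only.

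The fits were tested on simulated data for Chd8 against control siRNA. With a replicate effect and a log2 change of 2, 0 of 194 changed genes were recovered without the block and 187 with it (15737 genes). With a log2 change of 1 the numbers were 0 and 57 of 196 (15802 genes). Without a replicate effect they were 79 and 77 of 193 at a log2 change of 2 (15600 genes) and 2 and 0 of 196 at 1 (15636 genes). The simulated replicate effect was given to every gene, whereas 25% of the real genes were called between numbers. Simulations with the effect used a single spread for all genes, and those without it a spread for each gene. The recoveries with and without the effect are therefore not like for like.

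Alternatives were DESeq2 1.42.0, limma 3.58.1 (voom), DESeq2 size factors, other count filters, protein-coding transcripts only, the compared groups only, the block, and each library left out. The members and the gene lists were chosen with earlier results of these data known. The 10 members were all named; of the 62 tested pathway genes, the 2 higher and the 2 lower with the lowest p were named for each siRNA, and others are said to have been named after their values were seen. Promoters are RefSeq sequences of GRCm38.p6, and their motifs were chosen after the values were seen.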

Additional observations from a re-analysis of the deposited data

How the results depend on the processing

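No member was called at gene level under any alternative for either siRNA or for Chd8 against Tsc2 siRNA. Counts over all genes depended on the fit. Against 0 calls in each comparison, Chd8 and Tsc2 siRNA gave 2 and 1 without a count filter and 9 and 6 by DESeq2, which gave 5 for Chd8 against Tsc2 siRNA. The replicate block gave 87, 63, and 36 calls in these 3 comparisons, and changed no call of a member. With the block and one library left out, the counts were 20 to 108, 7 to 131, and 4 to 130, and without the block they were 0 throughout. Leaving out the 3 number 1 libraries, an alternative chosen after seeing the data, gave 105, 128, and 136 with the block. In it 1363 of 16378 genes and 0 members differed between numbers 2 and 3, by 1 number term over 6 libraries. In all 9 libraries 4076 of 16273 genes and 7 members differed by the 2 number terms, and with one library left out 3063 to 3941 genes and 7 to 8 members. These counts come from fits of different size and are not like for like. For the members' transcripts DESeq2 called 2 with Chd8 siRNA and 1 with Tsc2 siRNA, against 0 by edgeR. The cause of these differences was not tested.

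Several member differences near 0 turned their sign, so that no direction can be given for them. With Chd8 siRNA, Stab1 (−0.01) was 0.0032 with DESeq2 size factors, 0.00045 without a count filter, 0.0031 by DESeq2, 0.0099 by limma, and 0.012 with the block; without the number 1 libraries it was 0.13, and 0.13 with the block. Without those libraries Gas6 was 0.053 with Chd8 siRNA, or 0.055 with the block, and Elmo1 was 0.0037, or 0.0075 with the block. With Tsc2 siRNA, Axl (−0.01) was 0.0085 without a count filter and 0.059 without the number 1 libraries, or 0.060 with the block. Mertk (0.00) was −0.0030 with the 6 libraries of the comparison only, −0.00092 with protein-coding transcripts only, and −0.056 without the number 1 libraries, or −0.059 with the block. Itgav (0.01) was −0.0015 with the block and −0.024 with protein-coding transcripts only. Over fits with one library left out, with and without the block, the log2 fold change with Chd8 siRNA ran from −0.24 to 0.13 for Mertk, −0.14 to 0.15 for Gas6, −0.15 to 0.61 for Mfge8, −0.13 to 0.45 for Itgav, −0.11 to 0.18 for Stab1, −0.28 to 0.26 for Elmo1, and −0.42 to 0.11 for Dock2. With Tsc2 siRNA it ran from −0.081 to 0.077 for Axl, −0.19 to 0.16 for Mertk, −0.22 to 0.10 for Gas6, −0.67 to 0.087 for Mfge8, −0.28 to 0.31 for Itgav, and −0.13 to 0.30 for Dock2. The difference from control in the log2 ratio of Axl to Mertk ran from −0.45 to 0.17 with Chd8 siRNA and from −0.28 to 0.24 with Tsc2 siRNA. That of Gas6 to Pros1 kept its sign but not its size, at 0.27 to 0.54 with Chd8 siRNA and 0.15 to 0.42 with Tsc2 siRNA.

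Pros1 kept its lower sign with both siRNAs, as did Axl with Chd8 siRNA and Stab1 and Tyro3 with Tsc2 siRNA, and Elmo1 kept its higher sign with Tsc2 siRNA, in all fits with one library left out, though not their size. With and without the block, Pros1 ran from −0.53 to −0.26 with Chd8 siRNA and from −0.53 to −0.17 with Tsc2 siRNA, Axl with Chd8 siRNA from −0.27 to −0.081, and with Tsc2 siRNA Stab1 from −0.60 to −0.19, Elmo1 from 0.15 to 0.62, and Tyro3 from −3.57 to −1.06. Tyro3 is limited by depth, at 2 to 47 counts per library. In simulated data with a replicate effect on every gene, the fit without the block recovered 0 of 194 genes changed by a log2 of 2. Without such an effect, and with another setting of the spread, it recovered 79 of 193. The lack of calls in that fit therefore does not show that values were alike.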
